A study of Sus scrofa with 15 samples.

Results

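Cohesin is the ring that holds sister chromatids together, shugoshins shield it at the centromeres and separase cuts it open. The transcripts of these genes were followed in pig oocytes through 10 symbols, namely the ring subunits *SMC1A*, *SMC1B*, *SMC3*, *RAD21*, *REC8* and *STAG3*, the shugoshins *SGO1* and *SGO2*, separase (*ESPL1*) and its inhibitor securin (*PTTG1*). The symbols were chosen with earlier results of these data known, and their rows were taken by symbol alone from the gene-level count table. A gene identifier paired with the symbol was found for 9 of the 10, out of 22516 genes in the table, and *PTTG1* was not analysed here. The libraries were RNAseq of pooled oocytes from sow ovaries collected at an abattoir, with 5 libraries per group. GV oocytes are immature oocytes, still with an intact germinal vesicle, taken before in vitro maturation (IVM). MII oocytes had completed the first meiotic division after IVM (44 h in the labels) and carried a first polar body. ‘Damaged’ oocytes went through the same IVM and showed no polar body. The cumulus cells of all groups were removed with hyaluronidase, and the labels name no genetic change. Since GV oocytes were not cultured, meiotic stage and time in culture cannot be told apart. Since the cDNA was primed on the poly(A) tail and oocytes were pooled, fewer molecules per oocyte, a shorter tail and fewer responding oocytes in a pool cannot be told apart.

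The transcript files held 6.40 to 23.6 M estimated counts per library, with 6.40 M in GV replicate 3 and 12 to 23.6 M in the 14 libraries used in the comparisons (4 GV, 5 MII, 5 ‘damaged’). The names in the deposited gene table contradict the transcript files, as 7 of its 15 columns carried the count total of a library with another name. Groups were therefore taken from the labels of the transcript files, and whether these or the column names are right was not tested. In CPM, counts scaled to a common library total after TMM factors, the 11 oocyte markers found (such as *ZP3* and *GDF9*) summed to 10029 to 11686 CPM in GV, 4735 to 7198 in MII and 5434 to 7138 in ‘damaged’ oocytes. The 10 markers of cumulus and granulosa cells summed to 4.41 to 9.09, 1.89 to 7.68 and 2.63 to 4.05 CPM, with *AMH* at 0 in every MII library. The 3 markers of theca and stroma summed to 5.57 to 10.9, 3.86 to 8.11 and 4.71 to 10.9 CPM, and the 3 of blood cells stayed under 2 CPM, with *CD68* at 0 in every MII library.

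In meiosis, SMC3 pairs with SMC1A or its germ-line relative SMC1B, and the arms are closed by a kleisin, RAD21 in somatic cells and REC8 in most meiotic complexes, to which a STAG protein binds. Mammalian oocytes load their cohesin before birth and keep it through the long arrest in prophase. At anaphase I separase cleaves REC8 along the chromosome arms, while shugoshin and its phosphatase keep the centromeric kleisin from being cleaved until anaphase II. Loss of this cohesion with maternal age is a known source of aneuploid eggs.

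By RefSeq gene positions on Sscrofa11.1, the build of the transcript annotation, the ring subunits lie apart from each other. *SMC1A* (ENSSSCG00000012325) is at chrX:46143738-46202187, *SMC1B* (ENSSSCG00000032971) at chr5:3976098-4067148 and *SMC3* (ENSSSCG00000010625) at chr14:120969629-121008924. *RAD21* (ENSSSCG00000006014) is at chr4:21772821-21802453, *REC8* (ENSSSCG00000002001) at chr7:75118743-75127759 and *STAG3* (ENSSSCG00000007650) at chr3:8175908-8211898. *SGO1* (ENSSSCG00000011207) is at chr13:7137891-7153202 and *SGO2* (ENSSSCG00000016092) at chr15:104099378-104150723. *ESPL1* (ENSSSCG00000000265) shares chromosome 5 with *SMC1B*, at chr5:18486969-18509913. Each span is the whole gene, introns included, and the values are sums over its exonic transcripts.

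Maturation moved the members in different directions. The shugoshins and *SMC1B* rose most, *SMC3* and *SMC1A* rose less, *STAG3* fell, *ESPL1* did not pass the test and *REC8* was at or near 0 throughout. Of the 9 genes, 8 passed the filter on low counts and *REC8* did not. In MII versus GV oocytes, 7 of the 8 had an FDR under 0.01 (limma-voom, Benjamini-Hochberg over 13166 genes), where 62.4% of all genes tested did. The 6 that rose stand against 28.3% of all genes, and the 1 that fell against 34.2%. Differentially expressed genes (DEGs, below 0.01 in FDR and beyond 2 in log2 fold change) were *SGO2*, *SMC1B* and *SGO1*, all upregulated, against 4.5% of all genes that were upregulated DEGs. None was a downregulated DEG, against 16.9% of all genes. In ‘damaged’ versus GV oocytes the same 3 genes were DEGs (background 4.08% upregulated and 16.4% downregulated), 6 of 8 had an FDR under 0.01 (61.5%), 5 of them up (28.0%) and 1 down (33.4%). Every matured library lay above every GV library in 6 of the 8 genes in MII (27.0% of all genes) and 5 in ‘damaged’ oocytes (26.6%), and below in 1 gene in each (33.0 and 31.8%). Both comparisons share the 4 GV libraries.

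These log2 fold changes depend on the scale. Normalisation factors by TMM, which set the typical gene near 0, were 1.35 to 1.74 in GV, 0.79 to 0.88 in MII and 0.83 to 0.92 in ‘damaged’ libraries. With them the log2 fold changes of all genes had a median of -0.17 in MII versus GV and -0.13 in ‘damaged’ versus GV oocytes, and on library sizes alone of -1.09 and -1.0. On library sizes no member was an upregulated DEG (0.365% of all genes in MII and 0.327% in ‘damaged’ versus GV oocytes), and *STAG3* was a downregulated one in both comparisons (29.4 and 27.7%). A change of scaling shifts the log2 fold changes of all genes nearly alike. Distances from the median gene therefore barely change and are no check on the members. In MII versus GV oocytes *SGO2* was 2.94 above the median gene with TMM factors and 2.93 on library sizes. *RAD21* was 0.78 above it on both scales, and *STAG3* 1.24 and 1.23 below it. Values are given with TMM factors from here on, unless library sizes are named.

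**Figure D1:**
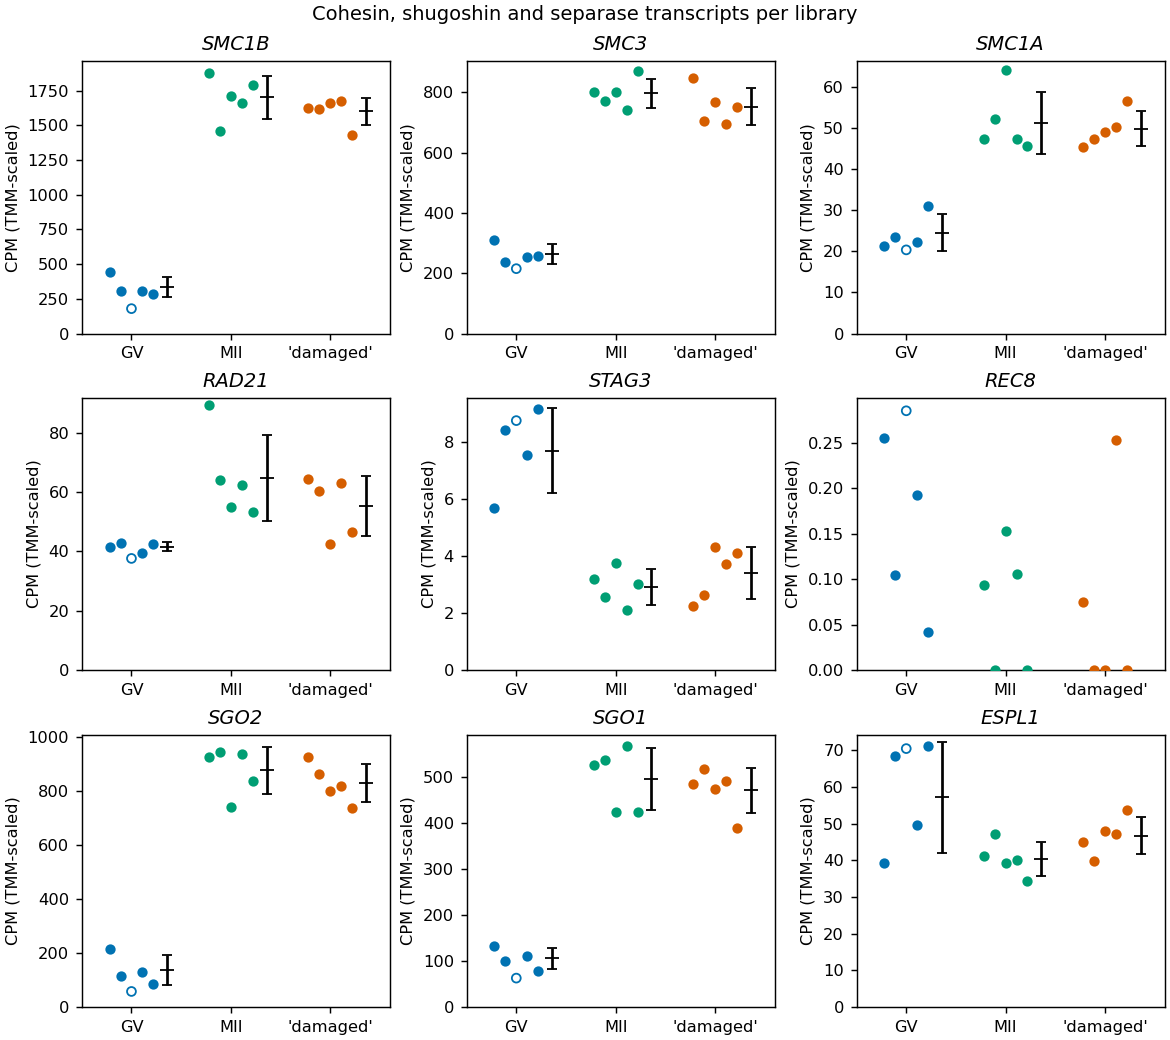
TMM-scaled CPM (y axis, from 0) of the 9 genes in each library by group; filled points are the libraries compared, the open circle is GV replicate 3, left out of the comparisons, and bars are mean ± SD (not drawn for *REC8*). In *SMC1B*, *SMC3*, *SMC1A*, *SGO2* and *SGO1* every MII and ‘damaged’ library lies above every GV library, in *STAG3* below, and in *ESPL1* the groups overlap.

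*SMC1B*, the germ-line SMC1 subunit, had the highest level. It stood at 443, 304, 309 and 281 CPM in GV replicates 1, 2, 4 and 5, at 1878, 1459, 1713, 1663 and 1792 CPM in MII replicates 1 to 5, and at 1625, 1617, 1660.1, 1673 and 1431 CPM in ‘damaged’ replicates 1 to 5. Every matured library lay above every GV library, and GV replicate 1 was the highest of its group. Its log2 fold change was 2.37 (SE 0.13, FDR 1.46e-11) in MII and 2.28 (SE 0.13, FDR 2.34e-11) in ‘damaged’ oocytes, and 1.45 and 1.41 on library sizes.

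*SMC3*, the partner of both SMC1 proteins, rose less. Its GV libraries held 311, 236, 253 and 258 CPM, its MII libraries 742 to 871 CPM and its ‘damaged’ libraries 695 to 849 CPM, with no overlap between GV and either matured group. The log2 fold change was 1.60 (SE 0.12, FDR 3.31e-10) in MII and 1.51 (SE 0.12, FDR 7.41e-10) in ‘damaged’ oocytes, and 0.68 and 0.64 on library sizes, still at an FDR under 0.01.

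*SMC1A*, the SMC1 subunit of somatic cells, was far lower. It had 21.4, 23.6, 22.3 and 31.2 CPM in GV, 47.4, 52.2, 64.2, 47.4 and 45.7 CPM in MII and 45.6, 47.5, 49.1, 50.4 and 56.8 CPM in ‘damaged’ libraries, so GV libraries did not overlap with either matured group. With TMM factors the log2 fold change was 1.06 (SE 0.15, FDR 2.89e-06) and 1.03 (SE 0.15, FDR 4.35e-06), but 0.15 (FDR 0.457) and 0.16 (FDR 0.427) on library sizes. Whether *SMC1A* counted as risen thus rests on which scaling was used, whereas *SMC1B* and *SMC3* had an FDR under 0.01 on both. Both scales are relative to the other RNA of a library, so neither gives mRNA per oocyte.

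The somatic kleisin *RAD21* had a narrow GV range of 39.4 to 43.0 CPM. It stood at 89.2, 64.1, 55, 62.4 and 53.2 CPM in MII oocytes, all above GV, and at 64.5, 60.3, 42.5, 63.1 and 46.6 CPM in ‘damaged’ oocytes, of which the lowest fell within the GV range. The log2 fold change was 0.61 (SE 0.16, FDR 0.00255) in MII and 0.39 (SE 0.16, FDR 0.0401) in ‘damaged’ oocytes with TMM factors. With the replicate number as a block the value in ‘damaged’ oocytes passed the test (0.47, FDR 0.00756). On library sizes it changed sign, to -0.31 (FDR 0.0938) in MII and -0.48 (FDR 0.013) in ‘damaged’ oocytes. Relative to the median gene *RAD21* was 0.78 higher in MII versus GV oocytes, a distance that the choice of scaling hardly alters.

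The meiotic kleisin *REC8* was almost without reads. GV replicates 1, 2, 4 and 5 held 4.99, 2.03, 4.02 and 1.01 estimated counts, MII replicates 1 to 5 held 0.99, 0, 1.97, 1.98 and 0, and ‘damaged’ replicates 1 to 5 held 0.99, 0, 0, 3.94 and 0. Only 2 GV and 1 ‘damaged’ library exceeded 3 counts, so no fold change is given, and a difference was not detectable at this depth. All of these counts came from its 1 transcript found, of 2070 bases.

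*STAG3*, the meiotic STAG subunit that binds the kleisin, was the only member to fall at an FDR under 0.01 with TMM factors. It went from 5.68, 8.41, 7.54 and 9.15 CPM in GV to 3.18, 2.56, 3.74, 2.11 and 3.01 CPM in MII and 2.26, 2.63, 4.32, 3.74 and 4.11 CPM in ‘damaged’ oocytes, with no overlap between GV and either matured group. Its log2 fold change was -1.41 (SE 0.23, FDR 1.94e-05) and -1.17 (SE 0.23, FDR 1.17e-04), and -2.32 and -2.04 on library sizes. It rests on 111 to 221 counts per GV library and 29.7 to 71.2 per matured library.

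*SGO2*, the shugoshin that guards centromeric cohesin in mammalian meiosis, had the largest log2 fold change of the members. GV libraries held 216, 114, 129 and 86.7 CPM, MII libraries 928, 945, 743, 937 and 839 CPM and ‘damaged’ libraries 927, 864, 803, 819.5 and 737 CPM. GV replicate 1 was again the highest of its group and still far under the lowest matured library. The log2 fold change was 2.77 (SE 0.18, FDR 1.05e-10) in MII and 2.69 (SE 0.18, FDR 1.66e-10) in ‘damaged’ oocytes, and 1.85 and 1.81 on library sizes.

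*SGO1*, which guards cohesion in mitosis, moved likewise from a lower level. It stood at 134, 99.6, 111 and 77.7 CPM in GV, 526, 537, 425, 567 and 424 CPM in MII and 484, 518, 474, 491 and 388 CPM in ‘damaged’ libraries. Its log2 fold change was 2.25 (SE 0.15, FDR 1.49e-10) and 2.18 (SE 0.15, FDR 2.43e-10), and 1.34 and 1.31 on library sizes.

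*ESPL1*, the protease that opens the ring, did not pass the test. Its GV libraries were spread over 39.3, 68.5, 49.7 and 71.1 CPM, and the MII (34.3 to 47.1 CPM) and ‘damaged’ (39.7 to 53.7 CPM) libraries overlapped with them. The log2 fold change was -0.47 (SE 0.17, FDR 0.0178) in MII and -0.26 (SE 0.17, FDR 0.178) in ‘damaged’ oocytes. On library sizes it was -1.38 (FDR 6.93e-06) and -1.12 (FDR 6.40e-05), where the median of all genes was at -1.09 and -1.0. Without GV replicate 1, the GV library with the lowest *ESPL1*, the value in MII oocytes passed the test (-0.62, FDR 0.0012).

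**Figure D2:**
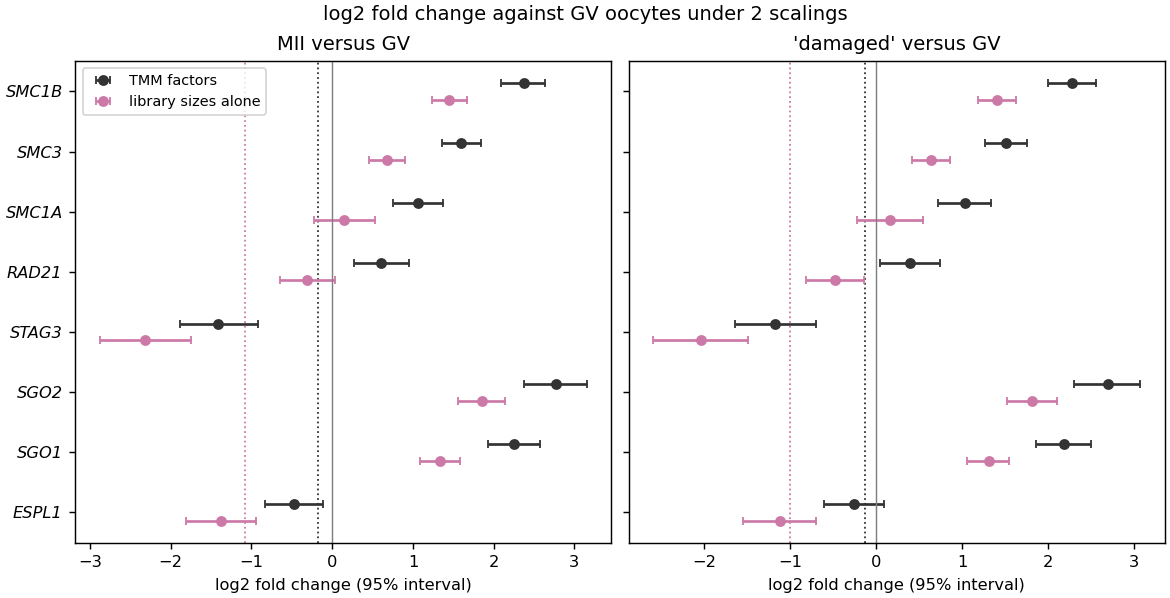
log2 fold change against GV oocytes (x axis, with 95% interval) of the 8 genes tested, in MII (left) and ‘damaged’ oocytes (right), with TMM factors (dark) and on library sizes alone (pink). Dotted lines mark the median of all genes on each scale, at -0.17 and -1.09 in MII oocytes. A change of scale shifts all genes nearly alike, so both give the same order, with *SGO2* highest and *STAG3* lowest.

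Levels of different genes were compared in TPM, Kallisto's abundance per transcript length scaled to a common total. In GV oocytes the order of mean TPM was *SMC1B* (199.95 ± 15.98, SD, n = 4), *SMC3* (162 ± 18.4), *SGO2* (127 ± 30.4), *SGO1* (88.3 ± 6.2), *RAD21* (26.7 ± 4.8), *ESPL1* (21.3 ± 8.5), *SMC1A* (13.1 ± 4.4), *STAG3* (4.46 ± 1.5) and *REC8* (0.17 ± 0.09). Library ranges overlapped between *SMC1B* and *SMC3*, *SMC3* and *SGO2*, *RAD21* and *ESPL1*, and *ESPL1* and *SMC1A*. Within each GV library compared the first of each pair was still the higher, with 1 exception. In GV replicate 1 *SGO2* (171 TPM) exceeded *SMC3* (156 TPM). In MII oocytes the order was *SMC1B* (501 ± 59.6, n = 5), *SGO2* (411 ± 19.4), *SMC3* (237 ± 23.0), *SGO1* (204 ± 19.4), *RAD21* (19.9 ± 3.9), *SMC1A* (13.0 ± 2.7), *ESPL1* (7.01 ± 0.69), *STAG3* (0.80 ± 0.21) and *REC8* (0.043 ± 0.043). There, *SMC1B* and *SGO2* overlapped, as did *SMC3* and *SGO1*, and *RAD21* and *SMC1A*. Within each MII library *RAD21* exceeded *SMC1A*. The other pairs changed order, with *SGO2* (423 TPM) above *SMC1B* (409) in MII replicate 2 and *SGO1* (227) above *SMC3* (213) in MII replicate 4. *SGO2*, whose GV range overlapped with that of *SMC3*, lay above it in MII oocytes, with 383 to 426 TPM against 213 to 262 TPM per library. This rank rests on a 1041-base *SGO2* transcript, to which Kallisto gave a mean of 236 TPM in MII oocytes. The 4346-base *SGO2* transcript alone held 149 to 195 TPM per MII library, below every *SMC3* value. In TPM, which like library sizes carries no TMM factor, *SMC1A* stood at 13.1 in GV and 13.0 in MII oocytes.

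Ratios between members of the same library do not depend on the scaling factor. These 3 ratios were chosen after the levels were seen, and 9 tests were adjusted together. The germ-line to somatic SMC1 ratio (*SMC1B* to *SMC1A* TPM) was 24.3, 15.1, 16.2 and 10.6 in the GV libraries, 46.3, 32.7, 31.2, 41.0 and 45.9 in MII and 41.7, 39.8, 39.5, 38.8 and 29.5 in ‘damaged’ libraries. Every matured library was above every GV library (exact permutation test, two-sided, p = 0.0159 in each comparison, adjusted p = 0.0238, the smallest that 4 against 5 libraries can give). The *SGO2* to *SGO1* ratio was 1.43 ± 0.27 (SD, n = 4) in GV, 2.02 ± 0.14 (n = 5) in MII and 2.01 ± 0.14 (n = 5) in ‘damaged’ oocytes, again without overlap between GV and either matured group (exact permutation p = 0.0159, adjusted p = 0.0238). Its size includes the 1041-base *SGO2* transcript. The 4346-base one alone had a mean of 62.7 TPM in GV and 175 in MII oocytes, below *SGO1* (88.3 and 204). The ratio on that transcript alone was not tested. The ratio of *SMC3* to the sum of *SMC1A* and *SMC1B* fell from 0.76 ± 0.07 in GV to 0.46 ± 0.04 in MII and 0.46 ± 0.05 in ‘damaged’ oocytes (exact permutation p = 0.0159, adjusted p = 0.0238). Between MII and ‘damaged’ oocytes the 3 ratios differed by 0.05, 0.01 and 0.00 on the log2 scale (exact permutation p = 0.786, 0.889 and 0.976).

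**Figure D3:**
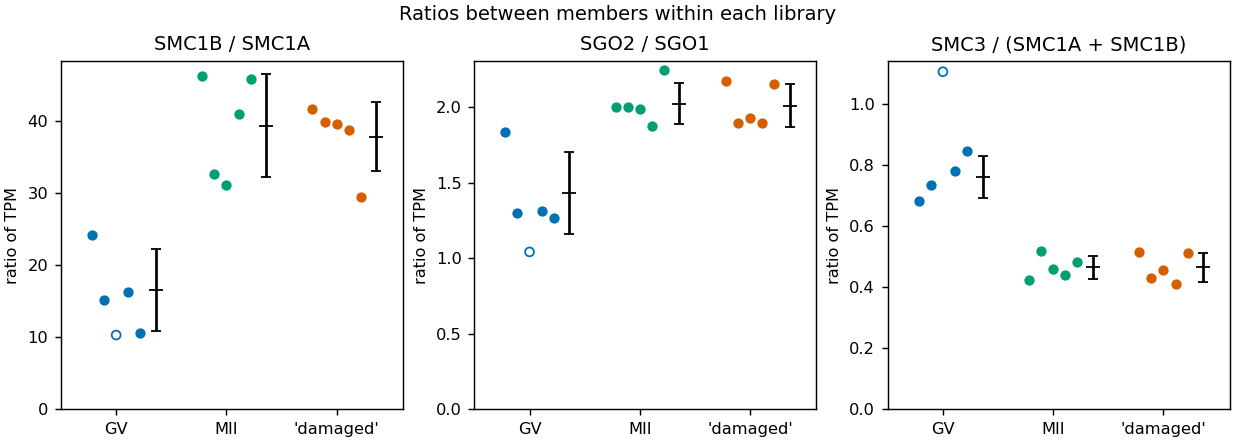
Ratio of TPM within each library (y axis, from 0) for *SMC1B* to *SMC1A*, *SGO2* to *SGO1*, and *SMC3* to the sum of *SMC1A* and *SMC1B*, by group; filled points are the libraries compared, the open circle is GV replicate 3 and bars are mean ± SD. GV libraries lie between 10.6 and 24.3 in the first ratio and MII libraries between 31.2 and 46.3.

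Transcript files split a gene between annotated isoforms, and the split is an estimate by Kallisto from short single-end reads. *REC8*, *STAG3* and *ESPL1* had 1 transcript each, and *RAD21* and *SGO1* had 98.6% or more of their TPM in 1 transcript in each library compared. Differential transcript usage (DTU) could be tested for 8 isoforms of 4 members, *SMC1A*, *SMC1B*, *SMC3* and *SGO2*. In MII versus GV oocytes 4 of the 8 were DTU isoforms (an FDR under 0.01 by the DEXSeq model and a change in isoform fraction over 0.1), 2 in *SMC1A* and 2 in *SMC1B*, where 33.0% of all isoforms tested were. The same 4 were DTU isoforms in ‘damaged’ versus GV oocytes (33.2%). As the shares of a gene sum to the whole, the 2 isoforms of a gene are 1 observation.

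The 2 main isoforms of *SMC1A* changed places. The 5844-base transcript (ENSSSCT00000035966.4) made up 64.9, 81.9, 65.7 and 67.3% of *SMC1A* TPM in GV replicates 1, 2, 4 and 5, but 8.70, 11.5, 14.8, 9.56 and 6.12% in MII and 12.4, 15.5, 14.1, 8.94 and 9.12% in ‘damaged’ libraries. The 3998-base transcript (ENSSSCT00000013478.4) took its place, from 29.3% ± 7.5 (SD, n = 4) in GV to 89.3% ± 3.1 (n = 5) in MII and 87.6% ± 3.0 (n = 5) in ‘damaged’ oocytes. GV libraries did not overlap with the matured libraries in either isoform. The 3998-base isoform gained 60.0 percentage points in MII (DEXSeq model, FDR 1.51e-25) and 58.3 points in ‘damaged’ oocytes (FDR 4.78e-27). In TPM the 5844-base isoform went from 9.20 ± 3.21 to 1.38 ± 0.74 in MII oocytes and the 3998-base isoform from 3.84 ± 1.71 to 11.6 ± 2.0, with the gene at 13.1 ± 4.4 and 13.0 ± 2.7. The other 2 *SMC1A* transcripts, of 8262 and 9501 bases, held 1.08% or less of its TPM in each library compared.

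*SMC1B* shifted in the same sense but less. Its 4190-base transcript (ENSSSCT00000044342.2) fell from 24.8% ± 4.9 (SD, n = 4) of *SMC1B* TPM in GV to 9.19% ± 2.62 (n = 5) in MII and 9.17% ± 1.99 (n = 5) in ‘damaged’ oocytes, a difference of -15.6 points in both (DEXSeq model, FDR 1.49e-06 and 8.68e-09). The 3968-base transcript (ENSSSCT00000070251.1) held the rest. In TPM the longer isoform was at 49.2 ± 8.8 in GV and 45.3 ± 10.9 in MII oocytes, whereas the shorter one went from 151 ± 19.8 to 456 ± 62.7.

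*SGO2* TPM was shared by a transcript of 4346 bases (ENSSSCT00000017520.5) and one of 1041 bases (ENSSSCT00000086804.1). The short one made up 49.4% ± 7.4 (SD, n = 4) in GV, 57.5% ± 3.5 (n = 5) in MII and 57.6% ± 0.9 (n = 5) in ‘damaged’ oocytes, a difference that missed the threshold (DEXSeq model, FDR 0.0969 and 0.0563) and was under 0.1 in isoform fraction. *SMC3* kept its 3930-base transcript (ENSSSCT00000096780.1) as the main one, with 74.2% ± 4.9, 75.3% ± 4.3 and 78.1% ± 2.5 of its TPM in GV, MII and ‘damaged’ oocytes (FDR 0.968 and 0.582).

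**Figure D4:**
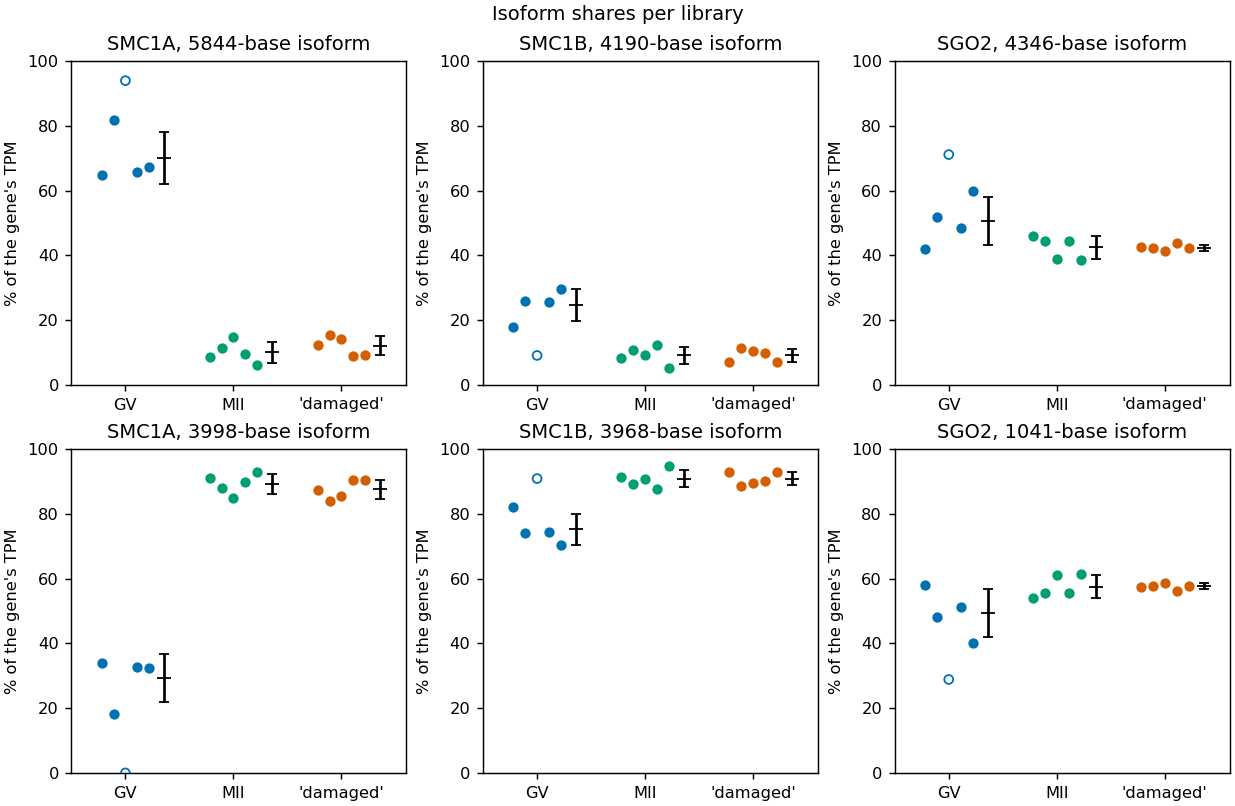
Share of the gene's TPM (y axis, 0 to 100%) held by the longer (top) and shorter (bottom) main isoform of *SMC1A*, *SMC1B* and *SGO2* in each library, by group; filled points are the libraries compared, the open circle is GV replicate 3 and bars are mean ± SD. The 5844-base *SMC1A* isoform lies between 64.9 and 81.9% in the GV libraries compared and between 6.12 and 15.5% in the matured ones, while the *SGO2* shares overlap.

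MII and ‘damaged’ oocytes were compared to ask whether oocytes that failed to extrude a polar body differ in these transcripts. No member passed the test, and neither did any other gene (limma, 0.0% of 13166 genes at an FDR under 0.01). MII and ‘damaged’ columns are among the 7 of the gene table whose names contradict the transcript files. Whether labels were exchanged between these groups was not tested. At an unadjusted p under 0.05 limma counted 193 of 13166 genes, edgeR 271 and DESeq2 251. With the replicate number as a block limma counted 351, with a smallest FDR of 0.0243. Each count is below what that threshold would give by chance among independent genes. No member was among the 193 (lowest member p in limma 0.177), and so the absence of members says little. Differences were small in the members that had risen, with a log2 fold change in MII versus ‘damaged’ oocytes of 0.08 for *SGO2* (95% interval -0.27 to 0.43), 0.07 for *SGO1* (-0.22 to 0.36), 0.08 for *SMC1B* (-0.17 to 0.34), 0.08 for *SMC3* (-0.14 to 0.31) and 0.03 for *SMC1A* (-0.25 to 0.32). The estimates were larger in size for *STAG3* (-0.24, from -0.75 to 0.28), *ESPL1* (-0.22, from -0.56 to 0.13) and *RAD21* (0.22, from -0.11 to 0.54). Differences within these bounds remain compatible with the data. In each of the 8 genes the libraries of the 2 groups overlapped, while MII lay wholly above ‘damaged’ in 0.0987% and wholly below in 0.175% of all genes. No isoform of a member differed in usage, with differences of 2.76 percentage points at most, against 0.00903% of all isoforms.

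The other genes of the cohesin cycle were taken as 4 lists of 41 symbols, of which 37 had an identifier and were tested. The lists were chosen with earlier results of these data known, so their counts beside all genes only describe them. Of the 10 genes tested for cohesin variants, loading, release and acetylation, 8 rose and 2 fell in MII versus GV oocytes at an FDR under 0.01, with a median log2 fold change of 1.47 beside -0.17 for all genes, of which 28.3% rose and 34.2% fell. The 8 that rose were the somatic STAG subunits *STAG1* (1.85) and *STAG2* (2.25, FDR 1.23e-08, a DEG with TMM factors, and 1.35 on library sizes, where it was not a DEG), the loader *NIPBL* (1.43), the releasing factor *WAPL* (1.5), its partners *PDS5A* (1.28) and *PDS5B* (1.68), the SMC3 acetyltransferase *ESCO1* (1.57) and the SMC3 deacetylase *HDAC8* (1.18). *STAG2* went from 24.7 ± 3.6 CPM (SD, n = 4) in GV to 122 ± 38.4 (n = 5) in MII and 117 ± 20.9 (n = 5) in ‘damaged’ oocytes. The 2 that fell were *MAU2* (-1.38), the partner of NIPBL in loading, and *CDCA5* (-0.80), which encodes the WAPL antagonist sororin. On library sizes 5 rose and 2 fell, with a median of 0.55 beside -1.09 for all genes. There 9020 of 13166 genes had an FDR under 0.01 in either direction. The split into rises and falls on that scale is not given here.

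Of the 6 genes tested for cohesion establishment at the replication fork, 3 rose and 2 fell in MII versus GV oocytes, beside 28.3% of all genes that rose and 34.2% that fell, with a median of 0.75. On library sizes 1 rose and 2 fell, with a median of -0.16 beside -1.09 for all genes. There 9020 of 13166 genes had an FDR under 0.01 in either direction. *WDHD1* (1.87), *DSCC1* (0.93) and *TIPIN* (0.74) rose, *DSCC1* at 0.01 and *TIPIN* at -0.18 on library sizes, and *DDX11* (-1.16) fell. *CHTF18*, a clamp-loader subunit, was a DEG at -5.09 (SE 0.65, FDR 8.25e-07) in MII and -6.24 in ‘damaged’ oocytes. It had 48.0 to 219 counts per GV library and 0 to 3.94 per matured library, so the size of this fall depends on how counts near 0 are treated.

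Of the 11 genes tested for the protection of centromeric cohesin, 5 rose and 3 fell in MII versus GV oocytes, beside 28.3% of all genes that rose and 34.2% that fell, with a median of 0.34. On library sizes 1 rose and 7 fell, with a median of -0.57 beside -1.09 for all genes. There 9020 of 13166 genes had an FDR under 0.01 in either direction. *BUB1*, the kinase that marks the sites of shugoshin, rose (1.44, FDR 4.32e-09, and 0.52 on library sizes). *MEIKIN*, a meiosis-specific kinetochore protein that acts in cohesin protection, fell, from 16.0 ± 1.7 CPM (SD, n = 4) in GV to 3.92 ± 1.39 (n = 5) in MII and 4.54 ± 1.19 (n = 5) in ‘damaged’ oocytes (log2 fold change -2.09, FDR 1.06e-07, and -1.83, FDR 4.45e-07). Its fall was opposite in direction to the rise of *SGO1* and *SGO2* on both scales. Of the subunits of the phosphatase PP2A, *PPP2R5D* was a DEG (-4.26, SE 0.47, FDR 1.03e-07 in MII and -3.68 in ‘damaged’ oocytes). It had 7.15 to 24.2 counts per MII library, against 188 to 779 per GV library. With TMM factors *PPP2R5A* (1.25, and 0.33 on library sizes) and *PPP2R1B* (0.98, and 0.07 on library sizes) rose. The catalytic *PPP2CA* (0.34, FDR 0.0194, and -0.57 on library sizes) and *PPP2CB* (0.25, FDR 0.164, and -0.66 on library sizes) did not pass the test with TMM factors in MII oocytes. In ‘damaged’ versus GV oocytes *PPP2CA* passed it (0.38, FDR 0.00994).

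Of the 10 cohesin kinases and regulators of separase, 3 rose and 4 fell in MII versus GV oocytes, beside 28.3% of all genes that rose and 34.2% that fell, with a median of -0.50. On library sizes 3 rose and 7 fell, with a median of -1.41 beside -1.09 for all genes. There 9020 of 13166 genes had an FDR under 0.01 in either direction. *CCNB1*, cyclin B1, which with CDK1 holds separase inactive, rose (2.6, FDR 1.23e-11, and 1.68 on library sizes), as did *CDC20* (2.01, FDR 2.26e-10, and 1.10 on library sizes), the activator of the ubiquitin ligase that removes securin, and the kinase *CDC7* (1.76). *CDK1* itself fell from 417 ± 248 CPM (SD, n = 4) in GV to 24.2 ± 6.4 (n = 5) in MII and 21.8 ± 1.8 (n = 5) in ‘damaged’ oocytes (log2 fold change -3.96, FDR 3.20e-10, and -4.08, FDR 2.46e-10). *FZR1*, the other activator of that ligase, fell by 2.71 on the log2 scale (FDR 4.98e-09), *CSNK1D*, a casein kinase 1 isoform, by 3.94 (FDR 2.53e-08) and *PLK1* by 1.19 (FDR 3.27e-04). The fall of *CSNK1D* rests on 11.9 to 25.3 counts per MII library, against 217 to 684 per GV library. In ‘damaged’ versus GV oocytes the lists gave 8 up and 1 down, 3 and 2, 5 and 3, and 3 and 5, in the order above. In that comparison 28.0% of all genes rose and 33.4% fell at an FDR under 0.01. No gene of the lists differed between MII and ‘damaged’ oocytes.

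**Figure D5:**
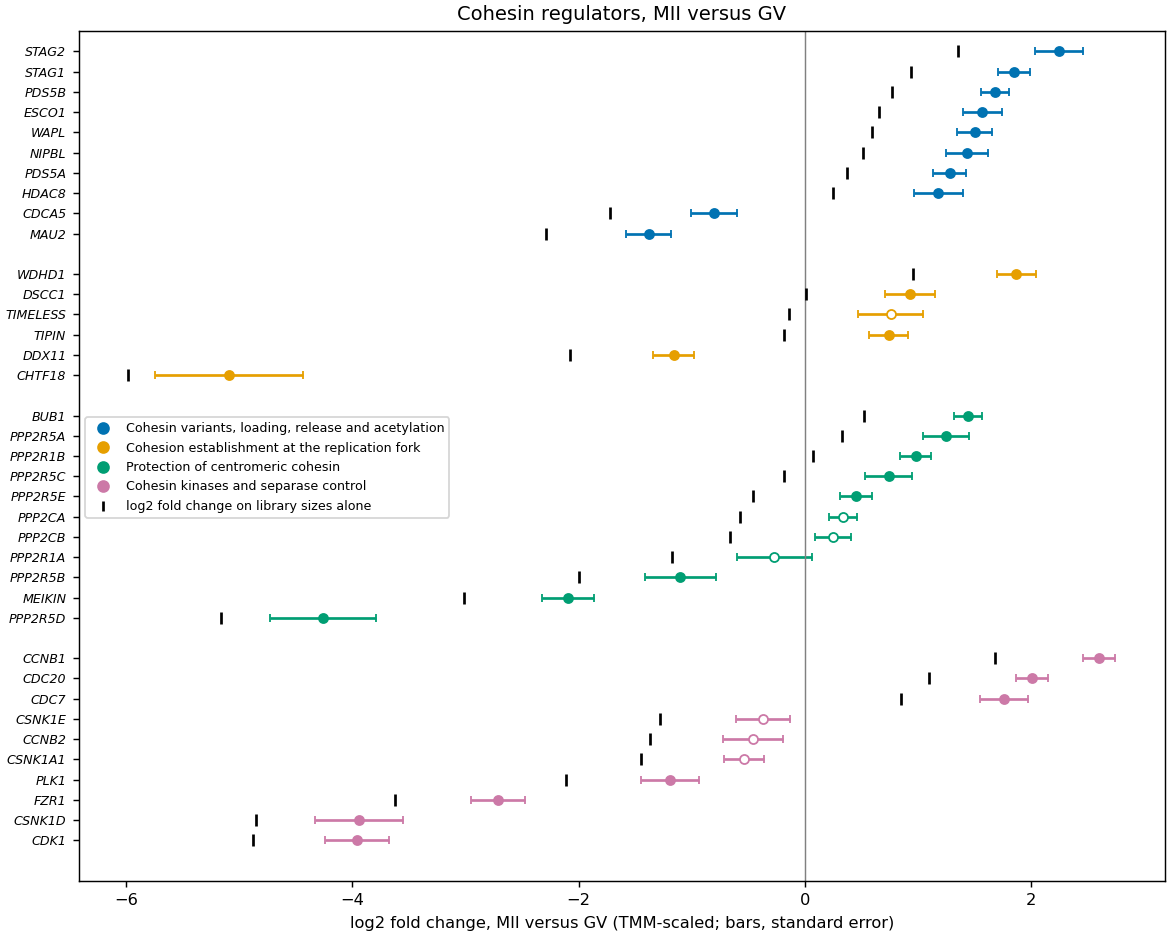
log2 fold change in MII versus GV oocytes (x axis, bars are the standard error) of the 37 cohesin regulators tested, by list; filled circles have an FDR under 0.01, and black ticks give the same gene on library sizes alone. *STAG2* and *CCNB1* lie at 2.25 and 2.6, and *CHTF18*, *PPP2R5D*, *CDK1* and *CSNK1D* lie between -5.09 and -3.94.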

How the data were processed

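The 15 pig libraries (5 GV, 5 MII, 5 ‘damaged’) were used as labelled. The authors trimmed reads with AfterQC and made estimated counts and TPM per transcript with Kallisto (version 0.43 in the submitters' processing notes) on the Ensembl cDNA of Sscrofa11.1; the deposited estimated counts were not normalised across libraries. The deposited gene-level estimated counts came from tximport (lengthScaledTPM), before filtering. Of its 15 columns, 8 matched the total of the library they name and 7 did not and were not used. The transcript files were then used to compute gene counts in all 15 libraries by that formula, after finding the transcripts of each gene by matching to the 8 columns (17456 genes; members within 0.00188% of the deposited counts). On simulated data 98.7% of genes got exactly their transcripts.

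GV replicate 3, the least deep, was left out, as the study left out 1 GV library. Counts were rounded, filtered with filterByExpr and tested in 1 fit of the 3 groups with limma 3.58.1 (voom) and TMM factors of edgeR 4.0.16 in R 4.3.3. Genes with an FDR below 0.01 that moved beyond 2 in log2 were DEGs. On simulated counts for MII versus GV, 200 of 200 genes moved by 3 in log2 were recovered with 0 false calls. The simulation moved as many genes up as down, left all others unchanged and gave every gene the same dispersion. It therefore does not test the choice of scaling. DTU used the DEXSeq model in DESeq2 1.42.0 on isoforms with a fraction over 0.05 in genes over 1 TPM. On simulated data for MII versus GV, 186 of 200 changed isoforms were recovered. Permutation tests used scipy 1.17.1 (Python 3.11.15).

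Symbols came from the gene name table and positions from RefSeq by symbol. The members, the lists and the tests were chosen with earlier results of these data known. Beside the members, all list genes that were DEGs against GV are named (9 genes), not each with every value. Of the other list genes, some are named with a value and the rest enter only the counts. Between libraries of a group, chi-square per degree of freedom was 15.1 or more, so no pair agreed within counting error. The labels do not say that the replicates came from separate animals, but the methods describe separate collections. Alternatives were other scalings (library sizes, DESeq2), edgeR's quasi-likelihood test, 2 other filters, all 5 GV libraries, summed counts, the replicate number as a block and leaving out each library. For DTU they were limma's diffSplice, an isoform fraction over 0.01, the block, all 5 GV libraries and leaving out each library under diffSplice.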

Additional observations from a re-analysis of the deposited data

Results flagged for a closer look

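Within groups, 57 sets of values were examined for a library that stands apart by Dixon's criterion, and 6 did; chance flags about 1 in 20. *SMC1B* was at 443 CPM in GV replicate 1, where the other GV libraries held 281 to 309 CPM, and at 1431 CPM in ‘damaged’ replicate 5, where the others held 1617 to 1673. The *SMC1B* to *SMC1A* ratio of ‘damaged’ replicate 5 was 29.5 against 38.8 to 41.7. The *SGO2* to *SGO1* ratio of GV replicate 1 was 1.84 against 1.27 to 1.32. In *SMC1A* the 5844-base transcript ENSSSCT00000035966.4 made up 81.9% in GV replicate 2 against 64.9 to 67.3%, and correspondingly the 3998-base transcript ENSSSCT00000013478.4 made up 18.1% against 32.4 to 34.0%.

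GV replicate 3, with 6.40 M counts and not used in the comparisons, was flagged in 5 isoform shares in which it exceeded the other GV libraries. It also exceeded them in some minor isoforms that are not listed here. It held 94.0% of *SMC1A* TPM in ENSSSCT00000035966.4 (others 64.9 to 81.9%), 90.9% of *SMC1B* in ENSSSCT00000070251.1 (70.4 to 82.0%) and 71.1% of *SGO2* in ENSSSCT00000017520.5 (42.0 to 59.9%). It also held 14.8% of *SMC3* in ENSSSCT00000075890.2 (0 to 0.61%) and 48.0% in ENSSSCT00000011621.5 (12.9 to 31.8%). The *SMC1B* share of this library thus lies with the matured libraries and the *SMC1A* share farther from them than any other GV library.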

How the results depend on the processing

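Library sizes in place of TMM factors changed most. They left 1 DEG among the members in each GV comparison (*STAG3*, against 3), gave 48 upregulated and 3867 downregulated DEGs among all genes in MII versus GV oocytes (against 593 and 2227) and 43 and 3650 in ‘damaged’ versus GV oocytes (against 537 and 2155), and turned *RAD21* in MII versus GV oocytes to -0.31. A filter at 10 CPM, under which *STAG3* was not tested, gave 198 and 1190 DEGs in MII and 172 and 1159 in ‘damaged’ versus GV oocytes, and left 2 member DEGs in MII and 1 in ‘damaged’ versus GV oocytes; *RAD21* in MII versus GV oocytes was then at 0.28 (FDR 0.118). With all 5 GV libraries there were again 3 member DEGs in both GV comparisons. The 4 DTU isoforms were counted under each alternative in both GV comparisons. Leaving out each library in turn kept 3 member DEGs and 4 DTU isoforms in both. Those DTU runs used limma's diffSplice, and the DEXSeq model was not rerun without single libraries. *ESPL1* in MII versus GV oocytes passed the test with all 5 GV libraries (-0.54, FDR 0.00853) and without GV replicate 1, and under the 10 CPM filter (-0.8, FDR 0.000369, and -0.57, FDR 0.00589, in ‘damaged’ versus GV oocytes). Of the values of single genes, isoforms and ratios under alternatives, 957 kept their side of the threshold, 7 newly passed it, 3 no longer did and 1 reversed. Of the counts, 236 stayed within 1.5 times and 11 did not. Deviations of libraries with the same replicate number correlated at -0.10 to 0.32 (13 pairs, median 0.069). The median was -0.01 in 52 pairs of other numbers. Of 14 libraries, 9 were nearest to their own number. The paper describes 5 independent collections with oocytes of each group, so equal numbers may share a collection, which the main fit does not model. With the replicate number as a block the member DEGs stayed at 3 and 3, the DEGs among all genes were 601 up and 2236 down in MII and 552 and 2130 in ‘damaged’ versus GV oocytes, and *RAD21* in ‘damaged’ versus GV oocytes passed the test (0.47, FDR 0.00756). Under the block 351 genes had an unadjusted p under 0.05 in MII versus ‘damaged’ oocytes, with a smallest FDR of 0.0243 and 0 genes at an FDR under 0.01. Depth limits *REC8* most, at 0 to 4.99 counts per library.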

Other observations

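Among genes with a symbol, *CCT8*, *TMEM128* and *NPM1* had the patterns most like *SGO2* over the 14 libraries, with a Pearson r of 0.999, 0.998 and 0.998 on log2 CPM, beside 0.994 for *SGO1*, 0.99 for *SMC1B* and 0.982 for *SMC3*. The libraries form GV and matured clusters, so these correlations describe mostly that 1 difference. The same was not computed for *REC8*, which did not pass the filter on low counts.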
